A study of Mus musculus with 4 samples.

Results

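The UDP-glucuronosyltransferases of mouse liver were described on 4 expression arrays, in wild-type and Pnpla7 knockout animals at 3 and 6 weeks of age. The 10 genes Ugt1a1, Ugt2a3, Ugt2b1, Ugt2b5, Ugt2b34, Ugt2b35, Ugt2b36, Ugt2b37, Ugt2b38 and Ugt3a1 were looked for by the gene name printed beside each probe, and the rule used no measured value. Of the 10, 9 were found, on 10 probes, among 30026 genes on the array. No probe carried the name Ugt1a1. All mice were of the C57BL/6N strain, and the tissue was liver. The groups were Pnpla7+/+ (WT) and Pnpla7-/- (KO) animals, each at 3 weeks and at 6 weeks of age, and the series asks how PNPLA7, a lysophospholipase, serves the recovery of choline from phosphatidylcholine. Each group was 1 array hybridised with a pool of RNA from 5 livers, so no mean or SD over animals can be given and no difference was checked in a second pool. The sex of the animals and the part of Pnpla7 that was deleted are not given in the sources used here.

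UDP-glucuronosyltransferases sit in the membrane of the endoplasmic reticulum of hepatocytes and join glucuronic acid, carried by UDP, to bilirubin, steroids, bile acids, fatty acids and drugs. The conjugates are soluble in water and leave the cell through transporters toward bile or blood. Ugt1 genes are spliced from a row of alternative first exons onto shared downstream exons, whereas the Ugt2b genes are separate neighbours in a cluster. Ugt1a1 is the enzyme that conjugates bilirubin. Ugt3a1 belongs to the same superfamily but is known for a different sugar donor, UDP-N-acetylglucosamine, so the family name does not describe its reaction.

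The promoters of the members are shown first because 8 of the 10 hold one element upstream of their start. The element was derived from the 7 Ugt2b promoters among them. Stretches of 90 bases before the annotated start were taken from RefSeq (build GRCm38.p6), 5′ to 3′ on the gene's strand, with all 10 genes matched by symbol. Capitals mark GTTANANNTTAAC, the stretch of 13 bases that the 7 Ugt2b promoters keep best, with N where they differ.
Ugt2b5, chr5:87140341-87140430, minus strand: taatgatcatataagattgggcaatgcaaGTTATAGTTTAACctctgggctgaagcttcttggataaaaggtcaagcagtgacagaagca
Ugt2b37, chr5:87254789-87254878, minus strand: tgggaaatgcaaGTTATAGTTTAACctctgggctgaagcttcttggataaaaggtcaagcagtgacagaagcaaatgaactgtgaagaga
Ugt2b38, chr5:87424204-87424293, minus strand: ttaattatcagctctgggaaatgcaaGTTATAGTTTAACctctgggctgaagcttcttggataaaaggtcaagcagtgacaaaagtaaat
Ugt2b36, chr5:87092556-87092645, minus strand: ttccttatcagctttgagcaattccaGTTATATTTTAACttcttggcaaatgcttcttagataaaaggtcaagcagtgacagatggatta
Ugt2b35, chr5:87000770-87000859, plus strand: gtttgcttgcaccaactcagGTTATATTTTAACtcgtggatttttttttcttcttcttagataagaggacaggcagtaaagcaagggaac
Ugt2b34, chr5:86906938-86907027, minus strand: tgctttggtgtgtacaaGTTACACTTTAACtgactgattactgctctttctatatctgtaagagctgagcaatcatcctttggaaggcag
Ugt2b1, chr5:86926513-86926602, minus strand: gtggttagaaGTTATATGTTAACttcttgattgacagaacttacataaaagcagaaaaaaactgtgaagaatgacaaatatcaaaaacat
Ugt3a1, chr15:9279689-9279778, plus strand: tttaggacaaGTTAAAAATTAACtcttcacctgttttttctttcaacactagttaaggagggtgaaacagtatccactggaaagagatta
The stretch of Ugt2b1 ends 10 bases before its start and that of Ugt3a1 ends 51 bases before its start. In the remaining stretches the last base is the one before the start.

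The first base of the element lay 61 bases before the start in Ugt2b5, 64 in Ugt2b36 and Ugt2b38, 70 in Ugt2b35, 73 in Ugt2b34, 78 in Ugt2b37, 89 in Ugt2b1 and 130 in Ugt3a1. The letters have N wherever the 7 Ugt2b promoters differ, so all 7 match by construction. The Ugt3a1 promoter was not used to derive the letters, and the search for a kept stretch was chosen after these promoters had been read. On both strands over 250 bases before the start, the letters were found in 28 of 32851 RefSeq promoters, or 0.0852%, these 8 included. Over the whole window, aligned without gaps, the promoters of Ugt2b37 and Ugt2b38 were 94.1% identical over 236 bases. By this count the next highest of the 21 Ugt2b pairs stood at 59.9% and the median at 36.8%. An inserted or lost base lowers the count, so a low value does not show that 2 promoters are unlike. Ugt2b5 and Ugt2b37 stood at 57.0%, though their printed stretches are nearly the same from the element onward. The remaining members are shown with the shorter letters GTTAAT, or ATTAAC on the opposite strand, in capitals.
Ugt2a3, chr5:87337196-87337285, minus strand: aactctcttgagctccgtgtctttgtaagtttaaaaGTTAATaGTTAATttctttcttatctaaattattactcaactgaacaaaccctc
Ugt1a1, chr1:88211869-88211958, plus strand: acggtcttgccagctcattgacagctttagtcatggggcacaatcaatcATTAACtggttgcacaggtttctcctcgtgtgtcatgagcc
These shorter letters were found in 3 of the 10 promoters, the third being Ugt3a1, where they overlap the long element, and in 6.43% of all promoters. A match of letters is a description of the sequence and no measurement of a factor on it.

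Signals below are the processed intensity of a probe divided by the 75th percentile of all non-control spots on its array. They compare 1 probe between arrays, not 1 gene with another, because probes differ in how brightly they hybridise. Every member probe had 1 spot, and all 9 member genes were well above background on every array. The spread between spots was taken as a median, so single probes can scatter more. It came from the SDs of probes printed 10 times with a mean signal above the 75th percentile. It gave a log2 ratio an SD of 0.0854 for KO against WT at 3 weeks and 0.0996 at 6 weeks, 0.0837 for 6 against 3 weeks in WT and 0.101 in KO, and it leaves out differences between pools of animals. With the 95th percentile over all probes printed 10 times in place of the median, the KO/WT values were 0.312 (younger) and 0.325 (older). All arrays shared 1 slide, and the effect of position on it cannot be told apart from that of the group.

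The arrays were checked against their labels. All 8 hepatocyte markers, Alb and Hnf4a among them, were well above background on every array, with a summed signal of 1136 to 1245. Of 6 kidney tubule markers 2 (Umod and Slc12a1) were well above background on no array, 3 (Slc34a1, Aqp2 and Slc22a6) were so on every array and Kap only in KO at 6 weeks, with a summed signal of 0.380 to 0.498. Of 5 enterocyte markers 2 (Lct and Cdx2) were detected on no array and 2 that liver also expresses (Fabp2 and Apob) on every array, while Sis was detected on all but the WT array at 3 weeks. The Pnpla7 probe read 7.54 in WT and 6.70 in KO at 3 weeks, then 9.65 in WT and 4.42 in KO at 6 weeks, which are log2 ratios of -0.17 and -1.13. Whether this probe lies in the deleted stretch is unknown, so genotypes are taken from the labels.

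The first question was whether these enzymes differed between KO and WT liver at 3 weeks. All 9 genes read a little lower in KO, and none by as much as 2-fold. The log2 ratios of the 9 genes ran from -0.38 to -0.06 with a median of -0.16, while the median of all 21758 genes compared was 0.00. None of the 9 was at least 2-fold higher or lower, against 2.86% of all genes higher and 2.9% lower. In RNA from whole tissue, fewer cells of a type and less RNA per cell cannot be told apart.

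At 6 weeks the members again lay low in KO, with Ugt2a3 as the exception. The 9 log2 ratios ran from -0.40 to 0.17 with a median of -0.26, and 8 were negative. None reached 2-fold, against 6.49% of 21386 genes that were at least 2-fold higher and 4.54% that were lower. The median of all genes was 0.05. These signs, 9 negative at 3 weeks and 8 at 6 weeks, were the same under each scaling tried.

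**Figure D1:**
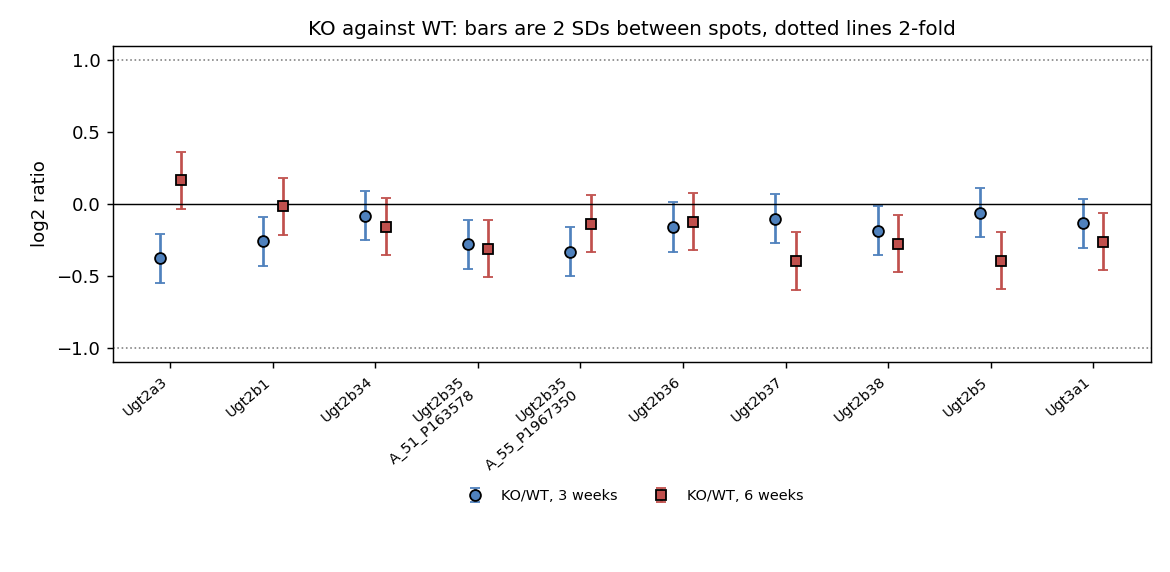
Log2 ratios of KO over WT for each member probe at 3 weeks (circles) and at 6 weeks (squares), from 1 array per group. Bars are 2 median SDs between spots and dotted lines mark 2-fold. Every point at 3 weeks lies below 0, Ugt2a3 is the only probe above 0 at 6 weeks, and all points lie inside the dotted lines.

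Against the spread between spots, 4 of the 9 genes were lower in KO by more than 2 SDs at 3 weeks and none was higher. These were Ugt2a3, Ugt2b1, Ugt2b35 and Ugt2b38. Among the 8187 bright genes, with a mean signal above the 75th percentile, 11.2% were lower and 11.2% higher by that measure. Beyond that cut they were not matched to the members in brightness. At 6 weeks the count was 5 lower and 0 higher, Ugt2b5, Ugt2b35, Ugt2b37, Ugt2b38 and Ugt3a1, against 20.0% lower and 30.9% higher among the bright genes. Ugt2b35 and Ugt2b38 were in both sets. At 3 weeks the count was 4 or 5 under the other scalings. At 6 weeks it was 7 with either quantile setting, which added Ugt2b34 and Ugt2b36. The shares of bright genes given here are for the main scaling only. All these counts rest on the median spread, and the scatter of each member's own probe was not measured.

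The 2 ages were then put into 1 fit. limma with age and genotype as terms left 1 residual degree of freedom on 4 arrays, and its spread is the difference of the KO/WT ratio between ages. Of 27109 probes tested, 0.0% passed a Benjamini-Hochberg adjusted p of 0.05 for KO against WT in either direction, while 1384 had an unadjusted p under 0.05. The smallest adjusted p of any probe was 0.142. The member probes had log2 changes of -0.29 to -0.11 in this limma fit, with Benjamini-Hochberg adjusted p values of 0.916 to 0.943. Ugt2b35 stood at -0.29 (SE 0.147, adjusted p 0.916 by limma with Benjamini-Hochberg). A trend in limma's variance prior brought 5 probes past the threshold, all higher in KO and none lower.

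The second question was how the enzymes differed between 3 and 6 weeks. All 9 genes read higher at 6 weeks in both genotypes, most of them modestly and Ugt2a3 and Ugt3a1 by more than 2-fold. In WT the log2 ratios of 6 over 3 weeks ran from 0.04 to 1.87 with a median of 0.52, and the median of 21169 genes was 0.01. In KO they ran from 0.10 to 1.75 with a median of 0.43, and the median of 21971 genes was 0.05. The members' median in KO was 0.20 with quantile normalization and 0.24 with normexp as well. Quantile normalization turned the sign for Ugt2b1 in WT (-0.03) and for Ugt2b34 in KO (-0.04), and normexp correction with quantile normalization turned Ugt2b34 in KO (-0.08).

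At least 2-fold higher at 6 weeks were 2 of the 9 genes in WT, against 3.64% of all genes, and 2 of the 9 in KO, against 6.02%. None was at least 2-fold lower, against 5.85% in WT and 6.26% in KO. Both were the same genes, Ugt2a3 and Ugt3a1, and 0.906% of the 18871 genes detected above background on each array, and 0.782% of the 8187 bright ones, were at least 2-fold higher in both genotypes. With a threshold of 1.5-fold the count in WT was 4, and with 3-fold it was 1. Beyond 2 spot SDs, 8 of 9 were higher in WT, all but Ugt2b1, and 8 of 9 in KO, all but Ugt2b34, and none was lower. Among the bright genes 30.2% were higher and 20.7% lower in WT, and 38.1% higher and 19.6% lower in KO. With quantile normalization the count of members was 7 in WT and 5 in KO, and with normexp as well 7 and 6. The shares of bright genes are for the main scaling only.

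**Figure D2:**
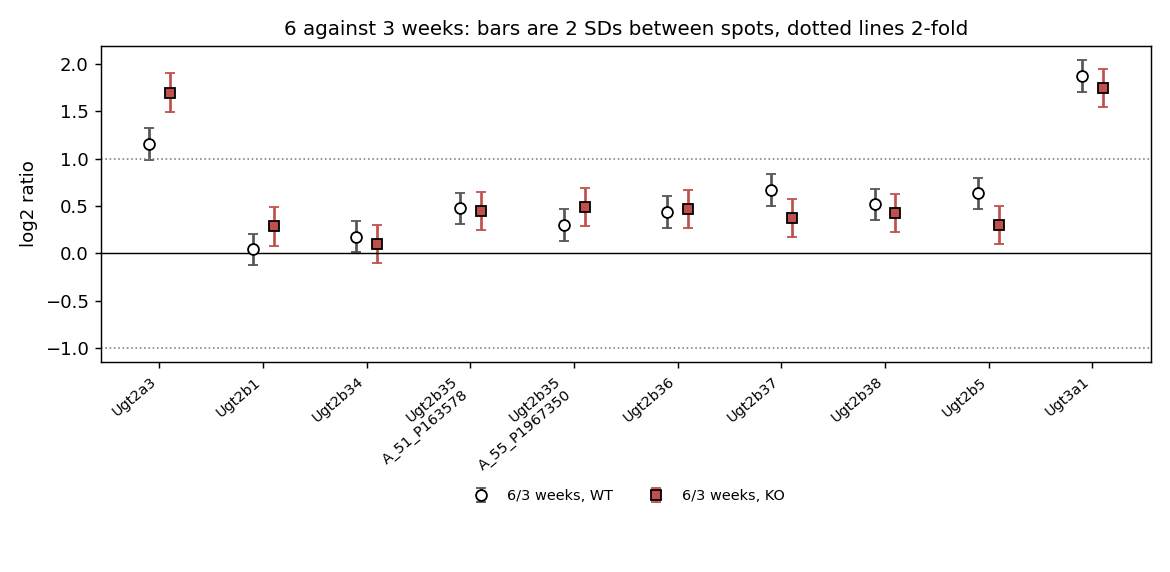
Log2 ratios of 6 over 3 weeks for each member probe in WT (open circles) and in KO (squares), from 1 array per group. Bars are 2 median SDs between spots and dotted lines mark 2-fold. Ugt2a3 and Ugt3a1 lie above the upper dotted line in both genotypes, and Ugt2b1 in WT and Ugt2b34 in KO lie nearest to 0.

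Ugt3a1 had the largest ratio between ages of the members. The gene's probe, A_55_P1954216 at chr15:9244664-9244723 of build mm9, read 2.15 in WT and 1.96 in KO at 3 weeks, and 7.87 in WT and 6.57 in KO at 6 weeks. Both 6-week arrays lay well above both 3-week arrays, and the KO array was the lower of the pair at each age. The level at 6 weeks was 3.66-fold that at 3 weeks in WT and 3.36-fold in KO. In the limma fit the log2 change with age was 1.81 (SE 0.151, Benjamini-Hochberg adjusted p 0.209), so it missed the threshold. No probe passed it for age: 0.0% of 27109 were called in either direction, 3445 had an unadjusted p under 0.05, and the smallest adjusted p was 0.207.

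Ugt2a3, a relative of the Ugt2b enzymes encoded beside them, differed from the rest in the sign of its genotype ratio. Its probe A_51_P298023, at chr5:87754406-87754465, read 7.13 in WT and 5.50 in KO at 3 weeks, and 15.9 in WT and 17.8 in KO at 6 weeks. The KO array was the lower of the pair at 3 weeks and the higher at 6 weeks, with log2 ratios of -0.38 and 0.17. The second lies within 2 SDs between spots of 0, and it was 0.05 with quantile normalization and 0.03 with normexp as well. From 3 to 6 weeks the log2 ratio was 1.16 in WT and 1.70 in KO, and limma gave a change with age of 1.43 (SE 0.214, Benjamini-Hochberg adjusted p 0.280).

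The genes whose pattern over the 4 arrays was most like these were found by the root mean square difference of log2 values centred on each gene's mean, among 14104 named genes detected above background on each array. For Ugt2a3 the closest were Fam13a (0.0406), Chac1 (0.0677), a glutathione-degrading enzyme, and Abcc3 (0.0777), a transporter that exports glucuronides into blood. Abcc3 read 9.04 in WT and 8.09 in KO at 3 weeks, and 21.6 and 23.8 at 6 weeks. For Ugt3a1 they were Camk1d (0.0822), Prr18 (0.0905) and Rdh16 (0.107), a retinol dehydrogenase. In all, 42 genes lay within 0.2 of Ugt2a3 and 13 within 0.2 of Ugt3a1.

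The Ugt2b genes, which conjugate steroids, bile acids and many drugs, formed the bulk of the family. Ugt2b38 (A_66_P131389, chr5:87839345-87839404) read 61.3 in WT and 53.9 in KO at 3 weeks, and 87.6 in WT and 72.4 in KO at 6 weeks. WT at 6 weeks was the highest array and KO at 3 weeks the lowest. KO over WT gave log2 ratios of -0.18 and -0.27 at the younger and older age, and those of 6 over 3 weeks were 0.52 in WT and 0.43 in KO. Either quantile setting widened the KO/WT ratio at 6 weeks to -0.50 or -0.52 and brought the age ratio in KO down to 0.16.

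Ugt2b5 (A_55_P1975080, chr5:87554155-87554214) read 34.9 and 33.5 in WT and KO at 3 weeks, then 54.2 and 41.3 at 6 weeks. Ugt2b37 (A_51_P302856, chr5:87669707-87669766) read 16.6 and 15.4 at 3 weeks, and 26.4 and 20.0 at 6 weeks. In both genes WT and KO lay close together at 3 weeks and apart at 6 weeks, where the log2 ratios were -0.39 for Ugt2b5 and -0.40 for Ugt2b37. Their centred patterns differed by 0.0313, the smallest difference of any pair of members.

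That likeness has to be read with their probe sequences, shown here because they overlap. Stretches of 30 of the 60 bases of each probe are given, with the longest shared run in capitals.
Ugt2b37, bases 5 to 34 of the probe: tgaatgAACTTTCAGCCTCATTCTaattta
Ugt2b5, bases 1 to 30 of the probe: gaacaAACTTTCAGCCTCATTCTtatttat
The run of 18 bases is the longest shared by any pair of Ugt probes compared, and 46 of 55 bases matched when the probes were aligned without gaps. The share of each signal that came from the other gene's transcript was not tested.

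Ugt2b36 (A_51_P102438) read 30.2 in WT and 27.0 in KO at 3 weeks, and 40.8 and 37.5 at 6 weeks. Its probe spans an intron, from 87495455 to 87509913 of chromosome 5, and lists the transcript of Ugt2b37 as a second match, so its level may hold both. The log2 ratios of KO over WT were -0.16 and -0.12, both within 2 SDs between spots of 0. Both went beyond 2 SDs with normexp and quantile normalization (-0.20 and -0.29), the first also with median scaling (-0.19) and the second with quantile normalization (-0.27).

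Ugt2b34 (A_55_P1977418, chr5:87318849-87318908) read 39.1 and 36.9 in WT and KO at 3 weeks, then 44.2 and 39.6 at 6 weeks. Its 4 values lay within a narrow range, and both of its genotype ratios, -0.08 and -0.16, were within 2 SDs between spots of 0. With quantile normalization, alone or after normexp, the ratio at 6 weeks was -0.30 or -0.31 and beyond 2 SDs. Ugt2b1 (A_51_P245503, chr5:87346310-87346369) read 4.61 and 3.85 at 3 weeks, and 4.74 and 4.69 at 6 weeks. The KO array at 3 weeks was the low one, and the other three lay close together. Its log2 ratio of KO over WT was -0.26 at 3 weeks and -0.02 at 6 weeks.

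Ugt2b35 was the member read by more than 1 probe. A_51_P163578, at chr5:87441721-87441780, read 4.20 and 3.46 in WT and KO at 3 weeks, then 5.83 and 4.70 at 6 weeks. A_55_P1967350, at chr5:87440554-87440613, read 0.589 and 0.468 at 3 weeks, and 0.723 and 0.658 at 6 weeks. Both probes put the arrays in the same order, and the KO/WT log2 ratios were -0.28 and -0.31 on the first and -0.33 and -0.14 on the second. The last of these lies within 2 SDs between spots of 0. The second probe is dimmer than the probes from which that spread was taken.

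**Figure D3:**
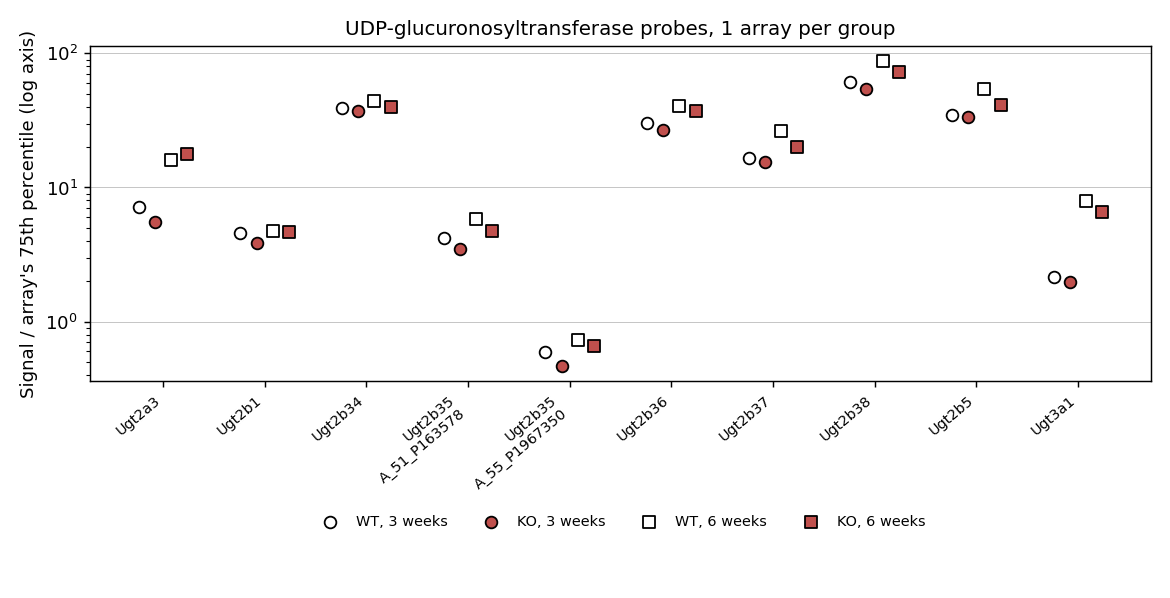
Signal of each member probe over its array's 75th percentile, on a log axis, with 1 point per array: WT open, KO filled, 3 weeks circles, 6 weeks squares. Squares lie above circles for every probe, by the widest margin for Ugt2a3 and Ugt3a1, and the filled point is the lower of each pair except for Ugt2a3 at 6 weeks.

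The order seen in Ugt2b38 was shared. In 8 of the 9 genes WT at 6 weeks was highest, followed by KO at 6 weeks, WT at 3 weeks and KO at 3 weeks, and Ugt2a3 was the exception. This order was noticed in the values and then counted, over genes of which some share probe sequence, so the 8 are not independent. It was found in 5.58% of 18871 genes detected above background on each array and in 6.62% of the 8187 bright ones. Being lower in KO at both ages, as the same 8 genes were, was found in 23.2% of the bright genes, and being higher at 6 weeks in both genotypes, as all 9 were, in 44.2%. With quantile normalization, alone or after normexp, the order was found in 5 of the 9 members, and Ugt2b1, Ugt2b34 and Ugt2b38 left it. The shares of other genes are for the main scaling only.

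Whether the genotype ratio differed between ages was asked next. The log2 difference, 6 weeks minus 3 weeks, ran from -0.33 in Ugt2b5 to 0.54 in Ugt2a3 with a median of -0.08, and the median of 18871 genes was 0.06. The members' median was -0.18 with quantile normalization and -0.21 with normexp as well. None of the 9 reached 4-fold, against 0.837% of all genes higher and 0.684% lower. With 1 array per group this difference has no test.

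Ugt1a1 itself could not be read. A_55_P2057577 at chr1:90116514-90116573, named for Ugt1a6a, lists the Ugt1a1 transcript among its matches. It read 0.246 and 0.212 in WT and KO at 3 weeks, then 0.237 and 0.209 at 6 weeks. A_55_P1962404 at chr1:90115493-90115552, named for Ugt1a6b, lists transcripts of several Ugt1a genes and read 116 and 100.1 at 3 weeks, and 141 and 147 at 6 weeks. The 2 probes differ widely in brightness and neither separates the Ugt1a genes, so no level is given for Ugt1a1.

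Of the 11 other probes for UDP-glycosyltransferases, under 8 names, 3 were at least 2-fold apart between KO and WT at either age. By the brightest probe of a gene, array-wide shares past 2-fold were 2.86% up and 2.9% down in KO at 3 weeks. The older age had 6.49% up and 4.54% down, and no array-wide share for either age was counted. Ugt1a10 on A_55_P2178800 (chr1:89952780-89952839), which also lists Ugt1a9, read 1.33 and 0.256 in WT and KO at 3 weeks, then 2.58 and 1.51 at 6 weeks. KO at 3 weeks was the low array, and the KO/WT log2 ratio was -2.38 at 3 weeks against -0.77 later. The other Ugt1a10 probe, A_55_P2178801 at chr1:89952720-89952779, read 0.0723 and 0.0399 at 3 weeks and 0.0949 and 0.0908 at 6 weeks, log2 ratios of -0.86 and -0.06.

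Another was LOC100048662, a predicted gene of the same first-exon row, on A_55_P2178798 at chr1:89952879-89952938. It read 0.0440 and 0.0324 in WT and KO at 3 weeks, then 0.0321 and 0.0743 at 6 weeks, with log2 ratios of -0.44 and 1.21. This probe lies close to both Ugt1a10 probes, and whether the probes read separate transcripts was not tested. The third was ENSMUST00000113139, a transcript of the same locus, on A_55_P2115798 at chr1:89985041-89985100. It was not well above background in WT at 3 weeks and read 0.0490 in KO there, at least 3.24-fold higher than the dimmest signal detected on the WT array, and 0.0158 and 0.0178 in WT and KO at 6 weeks. These dim probes lie outside the brightness from which the spread between spots was taken. Ugt3a2, the neighbour of Ugt3a1, read 15.7 and 15.2 at 3 weeks and 22.9 and 19.6 at 6 weeks on A_51_P267063, the same order of arrays as most members.

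**Figure D4:**
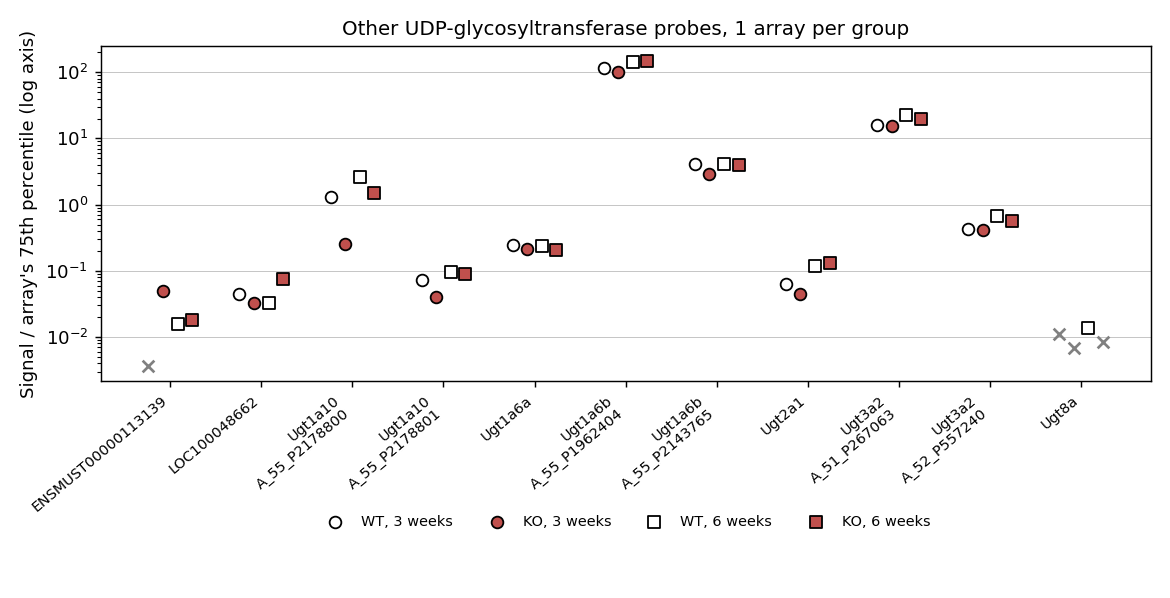
Signal of the 11 other UDP-glycosyltransferase probes over the array's 75th percentile, on a log axis, with 1 point per array: WT open, KO filled, 3 weeks circles, 6 weeks squares, and grey crosses where the probe was not well above background. Ugt1a10 on A_55_P2178800 read 1.33 in WT and 0.256 in KO at 3 weeks, and the ENSMUST00000113139 probe was below detection in WT at that age.

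Glucuronidation depends on UDP-glucuronic acid, made from glucose through UDP-glucose. The 10 genes for its supply and its entry into the endoplasmic reticulum had medians of -0.12 and -0.16 at the younger and older age (log2, KO over WT), and none was at least 2-fold higher in KO at either age or lower at 6 weeks. Ugdh, which oxidises UDP-glucose to UDP-glucuronic acid, read 12.04 in WT and 6.97 in KO at 3 weeks, then 14.6 and 7.88 at 6 weeks, log2 ratios of -0.79 and -0.89. Each KO array lay below both WT arrays. Uxs1, which turns UDP-glucuronic acid into UDP-xylose, stood at -0.28 and -0.39, and Hk1, a hexokinase, at 0.01 and -0.68. Across the whole gene set, 2-fold rises in KO made up 2.86% at the younger age and 6.49% at the older. Falls of that size made up 2.9% and 4.54%.

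Genes that use glucuronate or its products, a list of 8, had medians of -0.09 and 0.25 with none at 2-fold. Gulo, the last enzyme of ascorbate synthesis from glucuronate, had ratios of 0.27 and 0.51 (log2, KO over WT, at the younger and the older age), and Miox, which makes glucuronate from inositol, of 0.87 and 0.61. Dcxr, an L-xylulose reductase, stood at -0.13 and 0.88, and Sord, sorbitol dehydrogenase, at -0.26 and 0.43. Of the 7 measured genes listed for bilirubin and heme breakdown, with Gsta2, Gsta3 and Gsta4 among them, none reached 2-fold. Their medians were -0.19 and -0.21. Both lists can be set beside the array-wide shares past 2-fold. Those were 2.86% up and 2.9% down at the younger age, then 6.49% up and 4.54% down. Gsta2, a glutathione S-transferase, had ratios of -0.95 and 0.30, Gsta4 of -0.83 and -0.40, Hmox2, a heme oxygenase, of 0.32 and 0.42, and Blvrb, a biliverdin reductase, of -0.33 and -0.29.

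Transporters of conjugates and bilirubin numbered 10, with medians of -0.13 at 3 weeks and 0.24 at 6 weeks. In KO 1 was at least 2-fold higher at each age, against 2.86% of all genes at 3 weeks and 6.49% at 6 weeks. Slco1a1, an uptake carrier of organic anions with higher levels in male liver, read 0.0567 in WT and 0.599 in KO at 3 weeks, a log2 ratio of 3.40, and 0.248 and 0.301 at 6 weeks. Slco1a4, a related carrier, had ratios of -0.03 and 1.05. Abcb1a, a drug efflux pump, stood at -0.89 and 0.26 and Slco2b1 at -0.84 and 0.49. From 3 to 6 weeks 2 of the 10 were at least 2-fold higher in WT, with a median of 0.22, against 3.64% of all genes, and 5 of the 10 in KO, with a median of 0.85, against 6.02%.

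Among 14 regulators, medians were 0.05 and 0.14, and 1 was at least 2-fold higher in KO at 6 weeks, against 6.49% of all genes. That was Nr1i3 (CAR), a receptor known to drive Ugt and Cyp2b genes, which read 9.11 in WT and 7.87 in KO at 3 weeks, and 10.9 and 22.4 at 6 weeks. Nr0b2 (SHP) had log2 ratios of 0.69 and 0.03, Nfe2l2 (NRF2) of -0.02 and -0.68 and Nr1h4 (FXR) of -0.28 and 0.67.

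Of 19 measured target enzymes of CAR, PXR, AhR, PPAR-alpha and NRF2, 1 was at least 2-fold higher and 2 were lower in KO at 3 weeks, and 3 were higher and 2 lower at 6 weeks. Their medians were -0.26 and 0.21. For comparison, 2-fold rises in KO were seen in 2.86% of the whole gene set at 3 weeks and falls in 2.9%. The 6-week shares were 6.49% and 4.54%. Cyp2b10, the usual CAR target, read 39.9 in WT and 15.2 in KO at 3 weeks, and 52.9 and 61.2 at 6 weeks, log2 ratios of -1.39 and 0.21. Gclc, which makes glutathione's precursor, had ratios of -0.75 and -1.18, and Cyp2c55 of -1.22 and -3.52. Sult1e1, the estrogen sulfotransferase, read 0.288 in WT and 0.742 in KO at 3 weeks, and 0.0210 and 15.3 at 6 weeks.

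Several marker lists differed between KO and WT in these pools, and skeletal muscle did so most. The summed signal of 8 skeletal muscle markers was 0.121 in WT and 44.4 in KO at 3 weeks, and 0.647 and 30.5 at 6 weeks, and all 8 were at least 2-fold higher in KO at both ages. Of 8 male-biased liver genes 5 were at least 2-fold higher in KO at 3 weeks, with a median of 1.60, and of 7 female-biased genes 4 were lower, with a median of -1.43. At 6 weeks 3 of the male-biased genes were higher and 1 lower, and 1 of the female-biased genes was higher and 3 lower. For all genes the shares at least 2-fold higher and lower were 2.86% and 2.9% at 3 weeks, and 6.49% and 4.54% at 6 weeks. The summed signal of 6 Kupffer cell markers was 58.4 in WT and 52.1 in KO at 3 weeks, and 47.6 and 26.4 at 6 weeks. Median log2 ratios of KO over WT were -0.08 and 0.10 for cholangiocyte markers at 3 and 6 weeks. They were 0.14 and -0.21 for sinusoidal endothelium, and 0.10 and -0.35 for stellate cells. The part of any of these in the Ugt ratios was not tested. The hepatocyte markers had a median KO/WT ratio of 0.00 on the log2 scale at 3 weeks and of 0.23 at 6 weeks, beside -0.16 and -0.26 for the 9 Ugt genes. Single hepatocyte markers ran from -0.16 (Ttr) to 0.23 (Apoa1) at 3 weeks and from -0.10 (Serpina1a) to 0.96 (Tat) at 6 weeks. The share of hepatocytes in the pools was not tested.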

How the data were processed

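Total RNA from 5 livers per group was pooled and hybridised to 1 one-colour (Cy3) Agilent mouse array per group, per the labels' protocols. Agilent Feature Extraction 11.5.1.1 gave the deposited intensity of each spot, according to the submitters' processing notes. Its flags for outlying, saturated or detected spots are, per the file headers, other values of 0 or 1. The table of values the authors deposited gives that intensity over the array's 75th percentile, with column medians of 0.0853 to 0.0896. Its ratio to that quotient was 0.9998 to 1.0, so scale, centring and direction are known. Probe positions are in build mm9.

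Here each intensity was divided by the 75th percentile of its array's non-control spots and put on the log2 scale, outlier spots (189 to 252 of 43020 per array) were left out and spots of one probe were averaged. No spot was saturated, and 28714 to 30697 spots per array were well above background. Names of 39429 probes came from a RefSeq table by accession (27508), symbol (3544) or synonym (404), and 7973 probes kept their deposited name. Counts of genes used the brightest probe of a gene, where either array of the pair detected it well above background. Where only 1 array did, the ratio is a bound: the dim value was set to the lowest detected signal of that array, or to its own if higher. The difference between ages took genes detected on every array. Genes were counted at 2-fold, and at 4-fold for that difference.

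limma 3.58.1 in R 4.3.3 fitted genotype and age over probes detected on 2 or more arrays. It was tested on simulated data of 24467 probes, 50 changed per fold size at both ages: it found 0%, 20%, 74% and 98% of those changed 2-, 3-, 4- and 8-fold. Counting at 2-fold at both ages found 18%, 82%, 100% and 100%. Ratios, counts and figures were made in Python 3.11.15 with pandas 2.3.3, numpy 2.4.6 and matplotlib 3.10.9.

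The members, the gene lists and the naming rule were chosen with earlier results of these data known. The rule took all members on each probe, other Ugt genes at least 2-fold apart between KO and WT, up to 4 genes of each list by the larger of their KO/WT ratios in size, and for each member spanning at least 2-fold over the arrays the 3 genes most like it; 1 gene it takes is not reported here. The values of the Ugt3a2 and shared Ugt1a probes, the order of the 4 arrays, the count at 2 spot SDs, the age term of limma and the promoter letters were added after the values were seen. Alternatives were normexp (offset 50) with quantile normalization, quantile normalization, scaling to the median, detection required on every array or on none, all probes of a gene averaged, outlier spots retained, values from the authors' table, a threshold of 1.5-fold or of 3-fold (for the difference between ages 2.25-fold or 9-fold), and limma without age or with a trended variance prior. Precision is limited by there being 1 array per group.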

Additional observations from a re-analysis of the deposited data

Results flagged for a closer look

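In 4 probes the KO/WT ratio had opposite signs at the 2 ages, and the difference was not tested, since each group has 1 array. For Ugt2a3 the log2 ratio at 6 weeks minus that at 3 weeks was 0.54. For LOC100048662, a dim probe of the Ugt1 locus, it was 1.65, and for Ugt2a1, known from olfactory tissue and dim here, it was 0.63. For the shared Ugt1a probe named for Ugt1a6b, A_55_P1962404, it was 0.27. Groups of 1 array allow no search for outlying samples.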

How the results depend on the processing

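No paired analysis was possible because each group has 1 array and the labels carry no replicate numbers, and for the same reason no replicate could be left out. The counts of members at 2-fold between KO and WT were 0 at both ages under every alternative run. The count from 3 to 6 weeks in WT was 2, but 4 at 1.5-fold and 1 at 3-fold. With a trended variance prior limma called 5 probes for KO against WT, and 0 under the other settings. Among the KO/WT ratios of the 10 member probes no sign changed under the 5 alternatives to the values. Shifts were set against the SD between spots, again a median, from all detected probes printed 10 times, not only the bright ones. That SD of a log2 ratio was 0.0952 at 3 weeks and 0.118 at 6 weeks. At 6 weeks 6 of 10 moved by more than 1 such SD with normexp and quantile normalization (shifts of -0.22 to 0.00). With quantile normalization 5 of 10 did (-0.25 to 0.00). At 3 weeks none did. The cause was not tested. The order of the 4 arrays held for 8 members, and for 5 with either quantile setting. Dim probes such as those of Ugt2a1 and LOC100048662 lie outside the brightness range from which the spread between spots was taken.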
